A study of Mus musculus with 472 samples.

Results

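Tfap2d encodes AP-2 delta, a member of the AP-2 family of DNA-binding transcription factors, and in the mouse retina it is found in part of the retinal ganglion cells. Retinal ganglion cells (RGCs) are the output neurons of the retina, and combinations of transcription factors divide them into classes: Eomes, Foxp2, Tbr1, Neurod2 and Irx3 each mark a class. The cells described here had Tfap2d at 10 CPM or more, where CPM is a gene's read count scaled to a common library total, and each of those 5 factors below 10 CPM. They are 75 cells, or 15.9% of all cells of the series (95% exact binomial interval 12.7 to 19.5%), and are called members. They are set against comparison cells, 35.2% of all cells, in which all 6 genes were below 10 CPM. Both sets were chosen by the measured levels of those 6 genes, whose values are therefore a description.

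Each sample is 1 RGC of a C57BL/6J mouse aged 7 to 9 weeks, for which the labels name no treatment and no altered gene. Cells were patched in the retina and recorded under blue and green light, and their RNA was then amplified with Smart-seq2, a full-length single-cell protocol without molecular identifiers. The recordings were not used here. The labels name no animal, so all cells are 1 sample of 1 group, nothing was tested between cells, and intervals cover counting error only.

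Directional tuning, cell size and light sensitivity divide RGCs further, and some genes are background markers of such types. Cartpt, Col25a1 and Cdh6 have been used to mark ON-OFF direction-selective RGCs, which respond to motion in a preferred direction. Satb1, a chromatin-organising factor, is known in mice for its part in the bistratified dendrites of those cells. Spp1 (osteopontin) and Kcng4 mark the large alpha RGCs, and Opn4 (melanopsin) marks intrinsically photosensitive RGCs.

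Members were positive more often than comparison cells for Satb1, Cdh6, Cartpt and Col25a1, where positive means 10 CPM or more. Because these genes were positive together, the windows around their RefSeq transcription starts are shown (assembly GRCm38.p6, 250 bases before the start and 50 after, read on the gene's strand). They lie at chr17:51833241-51833540 on the minus strand for Satb1, chr15:13173626-13173925 on the minus strand for Cdh6, chr3:130180595-130180894 on the plus strand for Col25a1 and chr13:99900634-99900933 on the minus strand for Cartpt. Satb1 has 5 listed windows, of which the first is shown, and the other genes have 1 each.
Satb1: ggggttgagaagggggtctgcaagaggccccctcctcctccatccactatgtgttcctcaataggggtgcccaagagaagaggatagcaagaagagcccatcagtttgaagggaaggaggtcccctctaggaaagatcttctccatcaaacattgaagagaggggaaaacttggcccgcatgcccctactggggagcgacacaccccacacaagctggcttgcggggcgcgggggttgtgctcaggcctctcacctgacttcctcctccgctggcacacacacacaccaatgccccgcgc
Cdh6: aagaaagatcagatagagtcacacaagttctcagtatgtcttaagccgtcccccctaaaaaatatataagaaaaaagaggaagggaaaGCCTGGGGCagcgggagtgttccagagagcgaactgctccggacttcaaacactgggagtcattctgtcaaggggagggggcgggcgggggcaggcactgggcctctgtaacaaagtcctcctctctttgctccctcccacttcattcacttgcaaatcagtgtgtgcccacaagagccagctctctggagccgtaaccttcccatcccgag
Col25a1: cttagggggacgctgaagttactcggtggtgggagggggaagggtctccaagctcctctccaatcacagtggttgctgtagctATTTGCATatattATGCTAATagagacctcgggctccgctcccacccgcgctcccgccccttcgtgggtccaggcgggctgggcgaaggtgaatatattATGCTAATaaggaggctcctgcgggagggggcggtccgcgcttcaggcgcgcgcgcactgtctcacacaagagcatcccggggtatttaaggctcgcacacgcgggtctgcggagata
Cartpt: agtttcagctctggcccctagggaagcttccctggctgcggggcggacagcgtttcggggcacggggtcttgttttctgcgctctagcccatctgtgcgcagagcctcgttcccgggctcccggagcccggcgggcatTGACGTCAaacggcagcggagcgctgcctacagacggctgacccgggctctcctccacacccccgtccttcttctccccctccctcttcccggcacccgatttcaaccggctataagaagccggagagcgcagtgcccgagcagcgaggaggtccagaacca
Capitals mark matches, on either strand, to the AP-2 motif GCCNNNGGC, to ATGCNAAT (a loose form of the octamer of POU factors) or to TGACGTCA (the cAMP response element). The last 2 motifs were chosen after the windows had been read. No match overlaps another. The Cdh6 window holds 1 AP-2 match, the Col25a1 window 3 octamer matches, the Cartpt window 1 cAMP response element, and the Satb1 window none of the 3 motifs. Among the 27025 windows searched, 16.5% hold the AP-2 motif, 3.20% the octamer form and 1.88% the cAMP response element. In the 8283 windows of genes compared below, the AP-2 motif is found in 25.6%, the octamer form in 2.09% and the cAMP response element in 3.61%. A match describes letters and was not tested as a binding site.

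Tfap2d ranged from 10.5 CPM to 388.9 CPM in members, with a median of 89.5 CPM, against 0 to 9.61 CPM and a median of 0 CPM in comparison cells. Of the members, 36 had 100 CPM or more, and 70.5% of comparison cells had no Tfap2d count. The members nearest the threshold had 10.5, 11, 11.1, 12.7 and 17 CPM, and the comparison cells nearest it had 9.61, 8.81, 8.60, 8.51 and 8.13 CPM. The lowest Tfap2d count of any member was 49, which is above a few reads. A further 90 cells had Tfap2d at 10 CPM or more together with at least 1 of the 5 other factors, with a median of 52.6 CPM. Tbr1, a T-box factor, was positive in 24.2% of Tfap2d-positive cells (interval 17.9 to 31.5%) and 12.7% of the remaining cells (interval 9.19 to 17%).

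**Figure D1:**
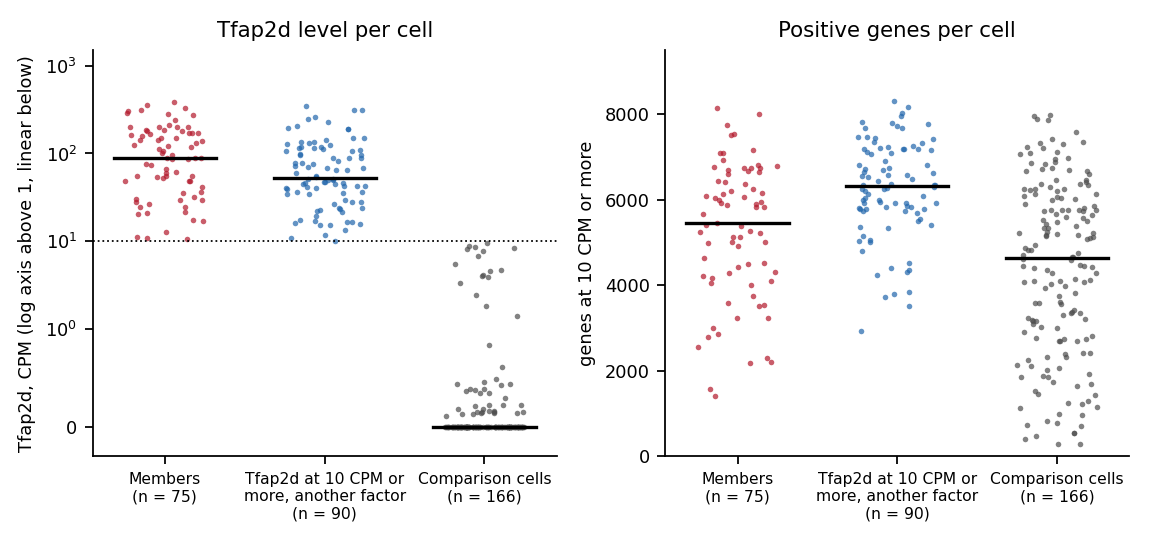
Tfap2d CPM (left, log axis above 1 CPM and linear below) and genes at 10 CPM or more (right) per cell in the 75 members, the 90 Tfap2d-positive cells with another factor and the comparison cells; points are cells, bars are medians and the dotted line is the 10 CPM threshold. Members and comparison cells are separated by the rule at left, and at right the members' median of 5455 genes lies above the 4633.5 of comparison cells with wide overlap.

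Codes in the library names, read as flow-cell or order codes, put the cells in 5 groups. These are called runs A to E, and a group may not be a single sequencing run. They held 40, 17, 11, 6 and 1 members and 79, 30, 20, 33 and 4 comparison cells. Median depth was 5304240 gene counts in members and 4911700 in comparison cells. Members had more positive genes, with a median of 5455 against 4633.5, and a smaller spike-in share, with a median of 0.65% against 1.4%. No member but 12 comparison cells had under 1000 positive genes, and in run D the medians were 4776.5 genes in members and 1523 in comparison cells. Gene detection therefore moves with the comparison, and the leading genes are also set against comparison cells weighted to the members' quartiles of positive genes, called matched below.

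All 75 members had at least 6 of 12 listed pan-RGC genes, as did 91.6% of comparison cells. Every member was positive for the neurofilament genes Nefl and Nefm and for Thy1. Most comparison cells carried Nefm too, at 92.8%, a matched difference of 4.57 points. The vesicular glutamate transporter gene Slc17a6 was positive in 97.3% of members and 86.1% of comparison cells. Pou4f1 (Brn3a), a POU factor of most RGCs, was positive in 89.3% of members and 71.1% of comparison cells. Rbpms2, an RNA-binding protein of RGCs, was positive in 90.7% of members and 70.5% of comparison cells, a matched difference of 12.1 points, and Pou4f1 had one of 13.4 points.

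Signs of neighbouring retinal cells were present in both sets. At least 3 of 8 rod genes were positive in 60% of members and 60.8% of comparison cells, and their summed level had medians of 315.4 CPM (range 0 to 30126) and 546 CPM (range 0 to 198596). At least 3 of 9 bipolar genes were positive in 36% of members and 34.3% of comparison cells. For 9 amacrine genes these shares were 40% and 37.3%, and for 8 Müller glia genes 80% and 70.5%. Isl1 is on both the bipolar and the pan-RGC list, so the bipolar shares can include RNA of the RGC itself. Of 5 horizontal-cell genes, at least 3 were positive in 16% of members (interval 8.55 to 26.3%) and 33.7% of comparison cells (interval 26.6 to 41.5%), the largest difference among these lists. Their summed level had medians of 420.7 CPM in members (range 0.69 to 3963) and 387.5 CPM in comparison cells (range 0 to 3750), and Lhx1, a defining factor of horizontal cells, was positive in 2 members and 5 comparison cells.

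Of 6 vessel genes, Cldn5, Cdh5 and Pecam1 were positive in 0 members, which, at 3 counts of 75, allows a share of up to 4%. The other vessel genes were found in members: Flt1 and Kdr in 10 each and Rgs5 in 7, against 24, 28 and 13 comparison cells. Of 5 erythroid genes Alas2 was positive in 0 members, the 4 globin genes in 4 to 8 members each, and at least 3 of the 5 in 3 members and 6 comparison cells. The part of RNA from other cells in the shares below was not tested.

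Of 10743 genes positive in at least 10% of the compared cells, 537 (5%) had a share at least 20 percentage points higher in members, and 2 (0.0186%) a share at least 20 points lower, so 5.02% passed in either direction. The median gene was 8.17 points higher in members. With matched comparison cells the median difference was 1.88 points, 55 genes (0.512%) were higher by 20 points and 15 (0.14%) lower, and the 55 were all among the 537. The share of genes higher by 20 points was 16.2% without run A, 12% without run B and 1.34% without run D. Of the 537 genes, 81.6% were higher in members in all 4 runs with at least 5 cells of each set. The number of higher genes thus moved with the cells compared, and leading genes are given with their matched difference.

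**Figure D2:**
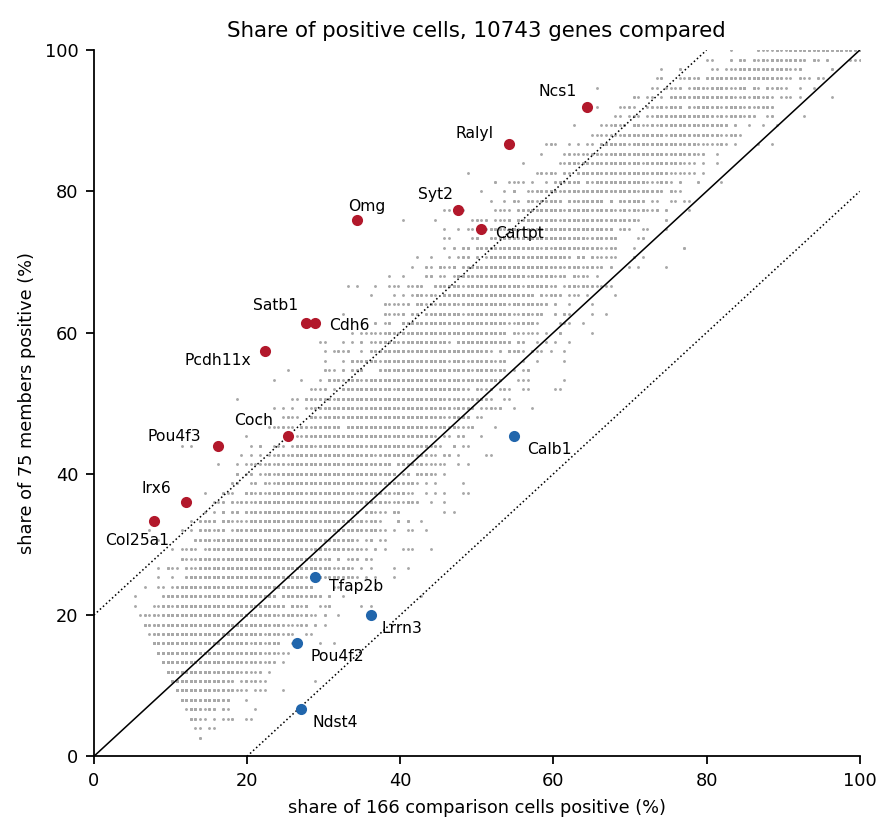
Share of the 75 members (vertical axis, %) against share of the comparison cells (horizontal axis, %) positive for each of 10743 genes; grey points are genes, red and blue points are named genes higher and lower in members, the solid line is equality and the dotted lines are differences of 20 points. Most genes lie above equality, with a median of 8.17 points, and Omg lies farthest above it at 41.7 points.

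Omg, which encodes a membrane glycoprotein that binds the Nogo receptor, had the largest difference. It ranged from 0 to 396.8 CPM with a median of 50.8 CPM in members, and from 0 to 1364 CPM with a median of 0.35 CPM in comparison cells. It was positive in 57 of 75 members (76%, interval 64.7 to 85.1%) and 34.3% of comparison cells (interval 27.2 to 42.1%), a matched difference of 34.9 points. With each cell thinned to 1000000 gene counts, which leaves out 3 members and 1 comparison cell for depth, and the rule applied again, the shares were 78.4% of members and 35.8% of comparison cells. The members' level distribution overlaps that of comparison cells at both ends, and the sets differ in how many cells carry the gene: among positive cells the median was 75.1 CPM in members and 86.9 CPM in comparison cells.

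Pcdh11x, a protocadherin of the X chromosome, ranged from 0 to 2317 CPM in members (median 79.2) and from 0 to 2151 CPM in comparison cells (median 0.21). It was positive in 57.3% of members and 22.3% of comparison cells, a matched difference of 33.8 points. In runs A, B and C its share was 60, 64.7 and 63.6% of members, against 21.5, 30 and 25% of comparison cells. In run D, with 6 members, it was 16.7% of members and 12.1% of comparison cells.

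Satb1 (chr17:51736187-51833290, minus strand, mm10) was positive in 46 of 75 members (61.3%, interval 49.4 to 72.4%) and 27.7% of comparison cells (interval 21.1 to 35.2%), a matched difference of 33.3 points. Its range was 0 to 1108 CPM in members (median 70.6) and 0 to 1190 CPM in comparison cells (median 0.16). Among positive cells the median was 173.6 CPM in members and 63.1 CPM in comparison cells, so it differed both in how many cells carried it and in their level. The transcript C230085N15Rik, whose span lies within that of Satb1, was positive in 44% of members and 11.4% of comparison cells, and since it lies on the same strand, reads of the pair may not be told apart.

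The 20 genes with the largest higher share, among those higher in all 4 runs, had matched differences of 20.6 to 34.9 points. With positivity at 100 CPM many were far smaller: 12.3 points for Omg, 13.8 for Mrps5, 6.75 for Nfu1, 4.13 for Fcf1, 4.90 for Ubald1, 9.89 for Kat5, 5.07 for Pde4d, 12.2 for Mapk1ip1, 8.08 for Stxbp2, 5.03 for Cachd1, 15.8 for C230085N15Rik and 19 for Zfp687. Syt2 was 19.6 points higher in cells with at least 3000 positive genes. Satb1, Pcdh11x, Cdh6, Ralyl, Sh3bp4, Ak5 and Parva kept at least 20 points in every alternative run. Several act in neurons. Ralyl encodes an RNA-binding protein of neurons and was positive in 86.7% of members and 54.2% of comparison cells. Syt2, a fast calcium sensor of synaptic vesicles, was positive in 77.3% of members and 47.6% of comparison cells. Pde4d, a phosphodiesterase that degrades cAMP, was positive in 77.3% of members and 47% of comparison cells. Ak5, an adenylate kinase, had 44% of members and 12.7% of comparison cells. Cachd1, which encodes a protein related to calcium channel subunits, had 53.3% and 23.5%.

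Others of the 20 serve in most cells. Mrps5 of the mitochondrial ribosome was positive in 76% of members and 40.4% of comparison cells, and Nfu1, which carries iron-sulfur clusters in mitochondria, in 82.7% and 48.8%. Fcf1, a factor of ribosomal RNA processing, was positive in 66.7% of members and 33.1% of comparison cells. The acetyltransferase gene Kat5 was positive in 76% of members and 44.6% of comparison cells, and Parva, which links integrins to actin, in 77.3% and 46.4%. The remaining genes of the 20 were Cdh6, described below, and Zfp687, Sh3bp4, Ubald1, Mapk1ip1 and Stxbp2, with shares of 50.7 to 77.3% of members and 18.7 to 45.8% of comparison cells.

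**Figure D3:**
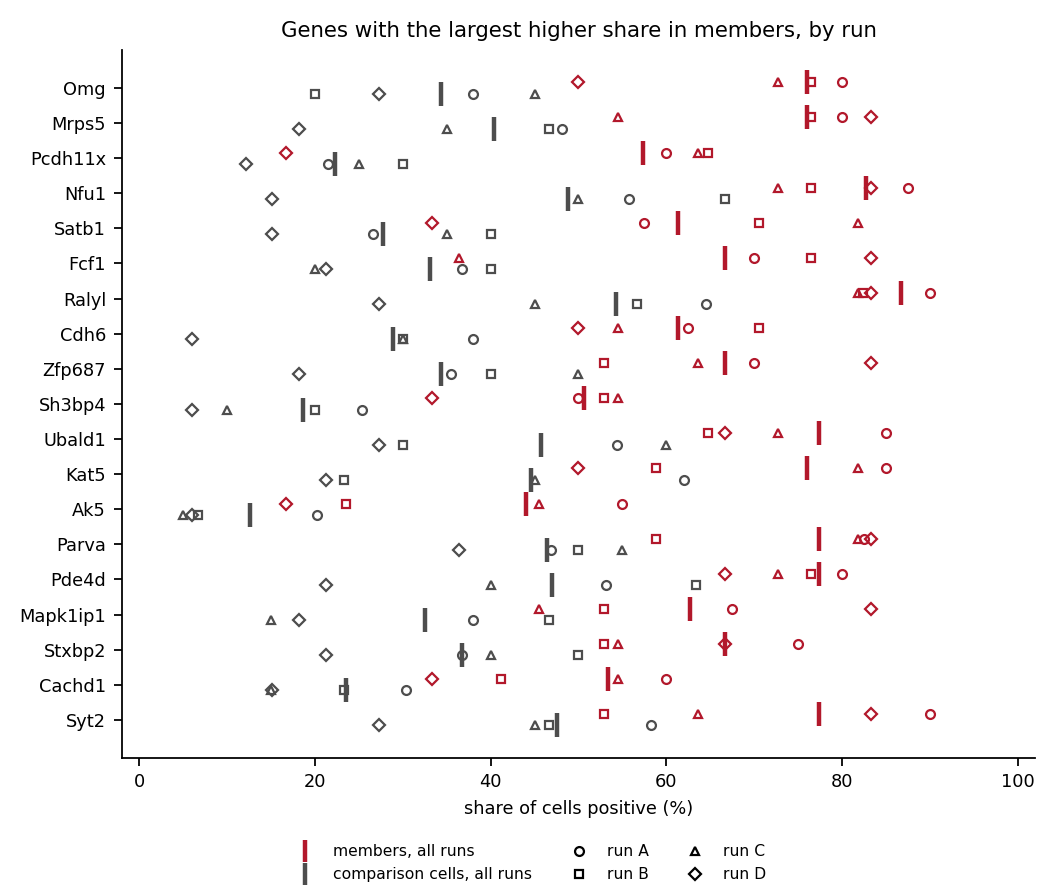
Share of cells positive (%) for 19 of the 20 genes with the largest higher share in members; red marks are members and grey marks comparison cells, vertical bars are all runs together and open symbols are runs A to D. The genes were chosen among those higher in members in each of runs A to D, so red lies to the right of grey in every run by that choice. Run D, with 6 members, has the widest departures.

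Lower genes were fewer and had lower shares. Ndst4, a heparan sulfate sulfotransferase, was positive in 5 of 75 members (6.7%, interval 2.2 to 14.9%) and 27.1% of comparison cells (interval 20.5 to 34.5%), a matched difference of -23 points. Lrrn3, which encodes a leucine-rich repeat membrane protein, was positive in 20% of members and 36.1% of comparison cells, with a matched difference of -25.4 points. Gpm6b, a neural membrane proteolipid, had 29.3% of members and 44% of comparison cells. Of the 12 genes with the largest lower share, Tgfb2, a growth factor, had 5.3% of members and 19.9% of comparison cells. Slc24a1, the sodium, calcium and potassium exchanger of rods, had 21.3% of members and 34.9% of comparison cells. Of the 8 listed rod genes, 2 had a higher and 6 a lower share in members, with a median difference of -1.59 points, and the part of rod RNA in this was not tested.

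Of 5 listed markers of ON-OFF direction-selective RGCs, 4 were positive often enough to compare and 3 were at least 20 points higher in members, where 5% of all genes were. The remaining one had a lower share in members, and 2 of the 4 passed 20 points when matched. The median difference of the 4 was 24.8 points, or 21.9 points matched, beside 8.17 and 1.88 points over all genes. Mmp17, the marker too rare to compare, was positive in 4 members and 7 comparison cells. At least 3 of the 5 were positive in 34.7% of members (interval 24 to 46.5%) and 10.2% of comparison cells (interval 6.1 to 15.9%).

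Cdh6, a cadherin, ranged from 0 to 1227 CPM in members (median 74.1) and from 0 to 614.8 CPM in comparison cells (median 0.20). It was positive in 61.3% of members (interval 49.4 to 72.4%) and 28.9% of comparison cells (interval 22.2 to 36.4%), a matched difference of 25.6 points. Cartpt, a neuropeptide precursor, ranged from 0 to 4299 CPM in members (median 336.7) and from 0 to 5351 CPM in comparison cells (median 10.4). It was positive in 74.7% of members and 50.6% of comparison cells, a matched difference of 19.6 points, and both sets ran from 0 to over 4000 CPM.

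Col25a1, a transmembrane collagen, ranged from 0 to 223.5 CPM in members and from 0 to 790 CPM in comparison cells, with a median of 0 CPM in both. It was positive in 25 of 75 members (33.3%, interval 22.9 to 45.2%) and 13 comparison cells (7.8%, interval 4.2 to 13%), a matched difference of 24.3 points. All 25 Col25a1-positive members were also positive for Cdh6, against 7 of 13 such comparison cells. By run, members positive for both numbered 17 of 40 in A, 4 of 17 in B, 3 of 11 in C and 1 of 6 in D, against 2 of 79, 1 of 30, 1 of 20 and 2 of 33 comparison cells. Run A holds most of them: without it the difference in share was 17.1 points, beside 29.1 points with all runs, and it was 7.53 points with positivity set at 100 CPM.

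Satb1, Cdh6 and Cartpt were positive together in 37 of 75 members (49.3%, interval 37.6 to 61.1%) and 12 comparison cells (7.2%, interval 3.8 to 12.3%). The 90 Tfap2d-positive cells with another class factor lay between, at 26.7% (interval 17.9 to 37%). Those 90 cells carried Satb1 as often as members, at 61.1%, but Cdh6 in 34.4% and Col25a1 in 18.9%. Irx6, an Iroquois homeobox factor, was positive in 36% of members, 61.1% of the 90 cells and 12% of comparison cells.

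Among 13 listed POU, LIM and related factors, 9 could be compared and 2 were at least 20 points higher in members, or 1 when matched, beside 5% and 0.512% of all genes. Pou4f3 (Brn3c) was positive in 44% of members (interval 32.5 to 55.9%) and 16.3% of comparison cells (interval 11 to 22.8%), a matched difference of 24.5 points. Barhl2, a homeobox factor, was positive in 49.3% of members and 28.9% of comparison cells, a matched difference of 14.8 points. With positivity at 100 CPM the Barhl2 difference was -1.42 points. The 90 Tfap2d-positive cells with another class factor carried Pou4f3 in 38.9% and Barhl2 in 52.2%, so neither was particular to members. Pou4f2 (Brn3b) stood apart from its relatives in direction, at 16% of members and 26.5% of comparison cells. Pou4f3 and Cdh6 met in 21 members, where independent shares would give 20.2, whereas Satb1 and Cdh6 met in 38, where independent shares would give 28.2.

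Among 68 listed class factors, 40 could be compared. Of these, 2 were at least 20 points higher in members (Satb1 and Irx6) and 0 lower, a share near the 5% of all genes. When matched, 2 were 20 points higher, beside 0.512% of all genes. The median difference of the 40 factors, 5.78 points, lay below that over all genes. Tshz2, a zinc finger factor, was positive in 42.7% of members and 26.5% of comparison cells. Onecut1 had 8.0% of members and 17.5% of comparison cells. Within the AP-2 family the other genes did not follow Tfap2d: Tfap2a was positive in 12% of members and 12.7% of comparison cells, and Tfap2b in 25.3% and 28.9%. Tfap2c was positive in 2 members and 5 comparison cells. Tfap2e was positive in 1 comparison cell and 0 members, which, at 3 counts of 75, allows a share of up to 4%.

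Markers of other RGC types were also found. Spp1 and Kcng4 were positive together in 15 of 75 members (20%) and 27 comparison cells (16.3%), and 13 of the 15 members came from run A. Mmp9 and Htr1d, which mark another set of cells in the series, met in 19 members (25.3%) and 52 comparison cells (31.3%). Hpcal4 and Kctd8 met in 12 members (16%) and 19 comparison cells (11.4%). Opn4 was positive in 9 members (12%) and 9 comparison cells (5.4%). Coch encodes cochlin and is listed here with markers of Foxp2-class RGCs. It was positive in 45.3% of members and 25.3% of comparison cells, a matched difference of 17.3 points. The 90 Tfap2d-positive cells with another class factor carried Coch in 53.3%. Foxp1 and Irx4 of the same list met in 3 members and 3 comparison cells.

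**Figure D4:**
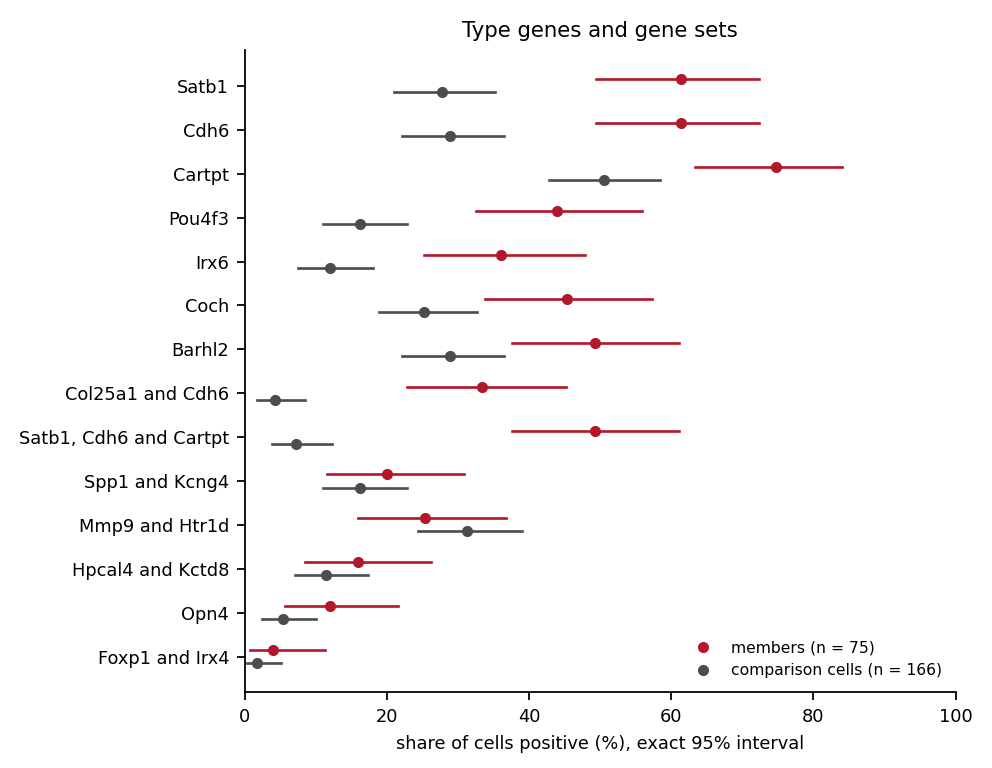
Share of cells positive (%) for single type genes and for pairs or trios of genes positive together; red points are the 75 members, grey points the comparison cells, and lines are exact 95% binomial intervals. Satb1, Cdh6 and Cartpt together reach 49.3% of members and 7.2% of comparison cells, while the intervals of Spp1 with Kcng4 and of Mmp9 with Htr1d overlap.

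Of 19 cadherins compared, 3 were at least 20 points higher in members: Pcdh11x, Cdh6 and Cdh18, the last positive in 57.3% of members and 36.7% of comparison cells. Beside this count stand the 5% of all genes, and Cdh18 was 13.7 points higher when matched, which leaves 2. Of 37 guidance genes, 3 were at least 20 points higher and 0 lower, and 2 were higher when matched, beside 5% and 0.512% of all genes. Robo2, a receptor for Slit proteins, was positive in 85.3% of members and 58.4% of comparison cells. Sema3e, a secreted semaphorin, was positive in 60% of members and 35.5% of comparison cells, and Plxna2, a semaphorin receptor, in 72% and 51.2%, a matched difference of 13.5 points. Rgma, a repulsive guidance molecule, was positive in 16% of members and 29.5% of comparison cells, a matched difference of -18.8 points.

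Of 47 adhesion genes of the immunoglobulin and leucine-rich repeat kinds, 3 were at least 20 points higher in members and 0 lower, a share near the 5% of all genes. When matched, Opcml alone of them was 20 points higher, and Lrrn3 was 20 points lower. Tenm2, a teneurin, was positive in 73.3% of members and 45.8% of comparison cells, a matched difference of 18.7 points. Opcml, a surface protein of the IgLON family, had 66.7% of members and 39.8% of comparison cells. Cadm2, a synaptic adhesion molecule, had 90.7% of members and 69.9% of comparison cells, a matched difference of 13.9 points.

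Ion channels set how a neuron fires, and 9 sodium channel genes had 0 past 20 points in either direction. Of 35 potassium channel genes, 4 were at least 20 points higher and 0 lower, with a median difference of 7.38 points, below the 8.17 points over all genes, of which 5% were higher. Kcna6, a voltage-gated channel, was positive in 62.7% of members and 38% of comparison cells. Kcns2, a modulatory subunit, was positive in 33.3% of members and 12.7% of comparison cells, with Kcnh1 at 44% and 21.7% and Kcna1 at 76% and 55.4%. None of the 4 reached 20 points with matched comparison cells, where Kcnc4, a fast-closing channel, was 21 points lower in members, at 34.7% against 47% of all comparison cells.

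Of 20 calcium and HCN channel genes, 2 were at least 20 points higher, beside 5% of all genes, and 0 when matched. Cacnb3, a calcium channel subunit, was positive in 78.7% of members and 54.8% of comparison cells, and the pacemaker channel gene Hcn4 in 40% and 18.7%, with matched differences of 14.3 and 16 points. Among 16 genes of inhibitory receptors, Gabrb1 and Gabra2, which encode GABA-A receptor subunits, were 20 points higher. Gabrb1 was positive in 52% of members and 28.9% of comparison cells, and Gabra2 in 76% and 53.6%, with matched differences of 17.8 and 14.7 points. None of 15 glutamate receptor genes passed 20 points. Of 15 modulatory receptor genes, the nociceptin receptor gene Oprl1 had 53.3% of members and 30.7% of comparison cells, and the dopamine receptor gene Drd1 had 53.3% and 31.9%. Their matched differences were 14.1 and 15.6 points.

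Among 11 neuropeptide genes, Cartpt, Cck and Vgf were at least 20 points higher in members, beside 5% of all genes, and 0 were when matched, at 19.6, 18.7 and 18.8 points. Cck (cholecystokinin) was positive in 42.7% of members and 19.3% of comparison cells, and the secreted precursor gene Vgf in 53.3% and 30.7%, where positivity at 100 CPM gave -0.43 points. Of 17 genes of calcium-binding proteins, Syt2 and Ncs1 passed 20 points, also when matched. Ncs1, neuronal calcium sensor 1, was positive in 92% of members and 64.5% of comparison cells. Calb2 (calretinin) was positive in all 75 members and 83.1% of comparison cells, with a median of 1196 CPM in members. Calb1 (calbindin) ran the other way, at 45.3% of members and 54.8% of comparison cells, a matched difference of -20.4 points. Calb1 is also one of the 5 horizontal-cell genes, as is Onecut1. Sept4, alone of the 4 horizontal-cell genes compared, went the other way. It was positive in 93.3% of members and 75.9% of comparison cells, a matched difference of 8.02 points. The 4 horizontal-cell genes compared had a median difference of -6.53 points, or -11.5 matched. At least 3 of the 5 were positive in 16% of members and 33.7% of comparison cells. Their part in the Calb1 share was not tested. None of 15 immediate-early and stress genes passed 20 points.

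Correlations between members were low. The median Pearson correlation of log2(CPM + 1) over 2000 variable genes was 0.11 between 2 members, 0.08 between 2 comparison cells and 0.09 between a member and a comparison cell (cells with at least 1000 positive genes). These pairs share runs and depth, and correlations this low say little. Of a member's 15 nearest cells, 48.4% were members on average, against 32% for a comparison cell, where members make 32.8% of these cells. In 8 clusters built without the 6 rule genes, members made 10 to 22.7% of each cluster, beside 15.9% of all cells of the series. With clustering at a finer resolution, which gave 16 clusters, members made 3.7 to 37.5% of each. Members were thus found in every cluster, but how evenly depended on the resolution.

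The members were divided by Satb1, a division chosen after its values were seen and given as a description. Of 46 Satb1-positive members 23, 12, 9 and 2 came from runs A to D, and of 29 Satb1-negative ones 17, 5, 2 and 4, with 1 from run E. Tfap2d had a median of 106.7 CPM in Satb1-positive members and 75.1 CPM in Satb1-negative members, with overlapping ranges of 10.5 to 388.9 and 12.7 to 242.6 CPM. Over 11041 genes positive in at least 10% of members, 11.7% had a share at least 20 points higher and 1.48% at least 20 points lower in Satb1-positive members. At 40 points, 57 (0.516%) were higher in Satb1-positive members and 6 (0.0543%) lower. Median positive genes were 5745 in Satb1-positive and 4989 in Satb1-negative members, and their part in this was not tested.

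The direction-selective markers were more frequent in Satb1-positive members. Cdh6 was positive in 38 of 46 Satb1-positive members (82.6%, median 139.1 CPM) and 8 of 29 Satb1-negative members (27.6%, median 0.31 CPM). Cartpt was positive in 93.5% of Satb1-positive members, with a median of 688 CPM, and in 44.8% of Satb1-negative members, with a median of 4.95 CPM. Col25a1 was positive in 47.8% and 10.3%, a difference that ran the other way in run C, where 2 members were Satb1-negative. Among comparison cells Cdh6 was positive in 30.4% of 46 Satb1-positive and 28.3% of 120 Satb1-negative comparison cells. Cartpt was positive in 60.9% and 46.7% of these cells, and Col25a1 in 10.9% and 6.67%, in the same direction as in members.

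Further genes followed Satb1 among members. Cacng3, an auxiliary subunit of AMPA receptors, was positive in 84.8% of Satb1-positive members (median 112.3 CPM) and 17.2% of Satb1-negative members (median 0.28 CPM). Bnc2, a zinc finger factor, was positive in 24 of 46 and 1 of 29. Calb1 was positive in 65.2% of Satb1-positive and 13.8% of Satb1-negative members, with the opposite direction in run C. Mmp9 was positive in 58.7% of Satb1-positive and 24.1% of Satb1-negative members. Comparison cells had the same direction with smaller differences, so it was not particular to members. In Satb1-positive and Satb1-negative comparison cells, Calb1 was positive in 71.7% and 48.3%, and Mmp9 in 50% and 38.3%. Bnc2 was positive in 39.1% and 27.5% of these cells, and Cacng3 in 54.3% and 47.5%.

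Other genes were more frequent in the 29 Satb1-negative members. Spp1 was positive in 30.4% of Satb1-positive members, with a median of 1.32 CPM, and 79.3% of Satb1-negative members, with a median of 1098 CPM. Coch was positive in 23.9% of Satb1-positive and 79.3% of Satb1-negative members. Etv1, an ETS factor, was positive in 15.2% and 65.5%, and Glra1, a glycine receptor subunit, in 8.7% and 51.7%. All 4 genes were lower in Satb1-positive members in runs A, B and C. Among comparison cells the differences were smaller, with Spp1 in 47.8% of Satb1-positive and 40% of Satb1-negative cells and Coch in 23.9% and 25.8%.

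Cdh6, Cartpt and Bnc2 were taken as a trio and Spp1, Coch, Etv1 and Glra1 as a quartet. They were picked because they differed by Satb1, in opposite directions, in these same members. The split of each count by Satb1 follows from that choice, which also favours a low overlap of trio and quartet. At least 2 of the trio were positive in 39 of 46 Satb1-positive and 6 of 29 Satb1-negative members. At least 3 of the quartet were positive in 3 of 46 Satb1-positive and 19 of 29 Satb1-negative members. Both patterns met in 2 Satb1-positive members and 1 Satb1-negative member, and neither was found in 6 Satb1-positive and 5 Satb1-negative members. Among comparison cells both met in 2 Satb1-positive and 2 Satb1-negative cells. Neither was found in 26 of 46 Satb1-positive and 63 of 120 Satb1-negative comparison cells. Pou4f3 differed less, at 47.8% of Satb1-positive and 37.9% of Satb1-negative members, nor did Omg, at 80.4% and 69%.

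**Figure D5:**
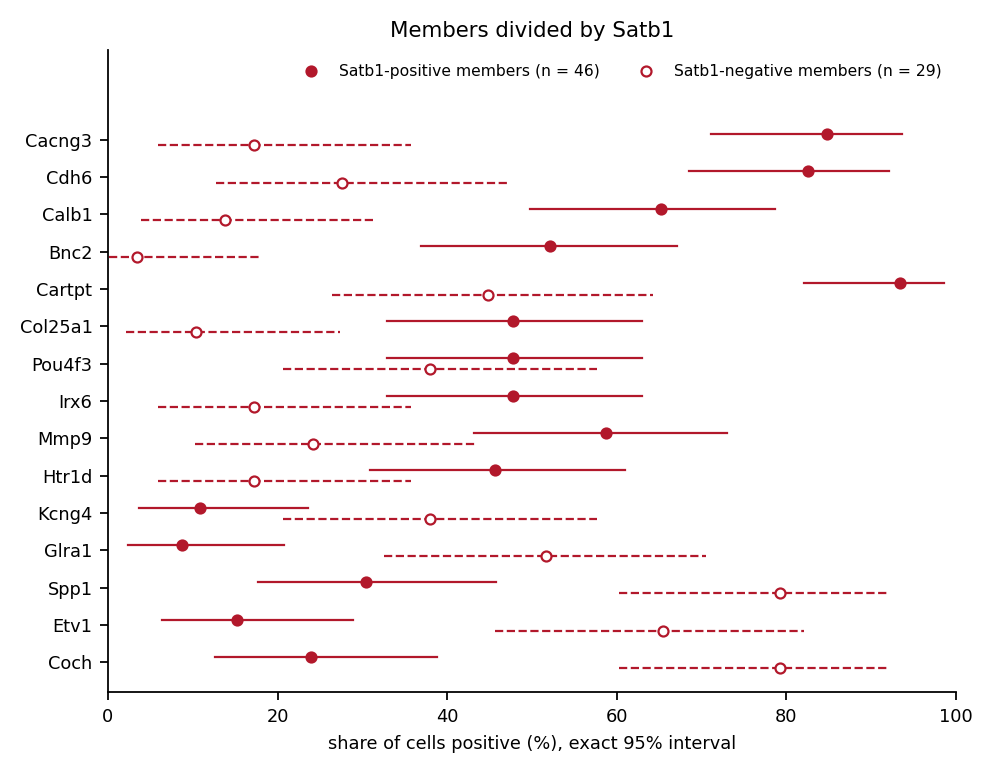
Share of members positive (%) for 15 genes in 46 Satb1-positive members (filled points, solid lines) and 29 Satb1-negative members (open points, dashed lines), with exact 95% binomial intervals. Cdh6 stands at 82.6% and 27.6%, Coch at 23.9% and 79.3%, and Pou4f3 at 47.8% and 37.9% with overlapping intervals.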

How the data were processed

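The authors deposited a table of estimated counts per gene and cell, for 55450 genes and 92 ERCC spike-in RNAs. The submitters' processing notes name STAR 2.7.0 and mm10; the tool and annotation behind the counts were not given in the sources used here. Estimated counts were rounded, scaled to CPM without spike-ins, and called positive at 10 CPM. Positions are from GENCODE mouse release 21. A deposited key pairs libraries with cells.

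Of 472 cells, 75 were members and 166 comparison cells. The members and gene lists were chosen with earlier results of these data known. Shares, with exact (Clopper-Pearson) 95% intervals, and differences in share were computed; no p-value was. Genes were compared when positive in 10% or more of the compared cells, and a difference of 20 percentage points was called. Gene counts per cell ran from 446443 to 8753870 in members. Named genes are the members of lists of up to 14 genes, the extremes of longer lists, the 20 highest and 12 lowest genes of 1 sign in 4 runs, and the AP-2 family; genes named in the division by Satb1 were chosen after their values were seen. The share computation was tested on simulated data. Doublets were not called, each library being 1 patched cell. Tables and statistics used pandas 2.3.3, numpy 2.4.6 and scipy 1.17.1 under Python 3.11.15. Clusters came from scanpy 1.11.5 with leidenalg 0.10.2, principal components from scikit-learn 1.9.0, and plots from matplotlib 3.10.9. Some genes of the lists are not reported here.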

Additional observations from a re-analysis of the deposited data

Results flagged for a closer look

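The spike-in RNAs lie outside the gene comparisons and gave a signal in every member: their share of all counts had a median of 0.65% and a highest value of 4.72% in members, against a median of 1.4% and a highest value of 31.1% in comparison cells.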

How the results depend on the processing

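The share of members stayed within its interval in 12 alternatives, from 13.1% with the rule at 100 CPM to 17.6% without cells with 3 or more bipolar markers. All 20 leading genes kept a higher share in members in each of 17 alternatives, but at 100 CPM the difference was as small as 4.13 points, for Fcf1. They were chosen in these same cells for large differences higher in each of runs A to D. Their kept direction was thus largely fixed by that choice. The share of compared genes at least 20 points higher, 5%, did not hold. It was 4.38% of fewer genes with positivity at 100 CPM and 16.8% with comparison cells of 0 Tfap2d counts. With members of 100 CPM Tfap2d or more it was 2.68%, and with cells of 3000 positive genes 1.1%. It was 9.04% without cells with 3 or more bipolar markers and 8.21% without the loci that cover ribosomal RNA. With comparison cells weighted to the members' mix of runs it was 2.12%, and with bins of positive genes 0.512%. It was 16.2%, 12% and 1.34% without runs A, B and D. The share lower, 0.0186%, was 0.00811% with positivity at 1 CPM, 0.0201% at 100 CPM and 0.169% with members of 100 CPM Tfap2d or more. It was 0.185% with cells of 3000 positive genes, 0.0584% without the bipolar cells and 0% after thinning to 1000000 gene counts. With comparison cells weighted to the members' mix of runs it was 0.0372%, and with bins of positive genes 0.14%. It was 0.0482%, 0%, 0.0821% and 0% without runs A, C, D and E. Of the lists with 2 or more genes compared, 10 had a median above that over all genes, and 17 with genes positive in 1% of cells. The difference of 29.1 points for Col25a1 with Cdh6 was 7.53 points at 100 CPM and 17.1 points without run A. Barhl2 and Vgf reversed at 100 CPM, to -1.42 and -0.43 points. Dividing members by Cdh6 in place of Satb1, an alternative chosen after seeing the data, gave 35 genes past 40 points in place of 63. Apart from fewer cells or genes where an alternative removes them, the cause was not tested. No paired analysis was possible because the cells form 1 group with no shared replicate numbers. The 6 members of run D and 1 of run E limit what runs can show.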
